A study of Mus musculus with 6 samples.

Results

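The PBS-only intergenic sites were the 3713 FOXC2 peaks of control podocytes that lay outside gene bodies and overlapped no peak in the list of injured podocytes. A missing call in that pooled list is not a measured loss of binding. They were chosen by measured properties of the peak lists. The peak shared no base with any peak called after adriamycin, and its summit lay outside every GENCODE M21 transcript on the mouse genome build GRCm38, and not within 1 kb upstream of a transcript start or 1 kb downstream of a transcript end. They made up 9.04% of the 41075 peaks of the control list and 27.3% of its 13597 peaks without an adriamycin counterpart, which were 33.1% of that list. The chromatin came from FACS-sorted podocytes of adult mT/mG reporter mice, in which a Cre active in podocytes switches the membrane reporter to green, and was precipitated with an antibody to FOXC2. All groups carried this reporter and driver, so sorting rested on the activity of the Cre driver. The control group (PBS) received phosphate-buffered saline and the injured group (ADR) received adriamycin (doxorubicin) at 18 mg/kg, on days 0 and 7, with collection on day 9. Each group had 3 samples, which the authors pooled into 1 peak list per condition, so no value per mouse was analysed here and the spread between mice is unknown. Peak lists hold no cell type marker levels, so the podocyte label could not be checked against expression.

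FOXC2 is a forkhead transcription factor that podocytes, the octopus-shaped epithelial cells covering the glomerular capillaries, need for their differentiation. Transcription factor peaks far from genes usually mark enhancers, stretches of DNA where several factors bind side by side and act on promoters at a distance. AP-1 is a dimer of FOS, JUN and related bZIP proteins that responds to growth factor and stress signalling, WT1 is a zinc-finger factor required throughout podocyte life, TEAD proteins bind DNA for YAP, LMX1B is a podocyte homeodomain factor and CTCF is a zinc-finger protein known for chromatin loops and insulation.

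The sequences under the strongest sites are shown first because sequence was not used to choose the sites and the motif comparisons turn on it. Each line gives the nearest protein-coding gene by transcription start site (TSS), the GRCm38 position and 101 bases of the plus strand centred on the summit, read from the reference genome, with the match in capitals. Within each motif the sites with the highest fold and a match within 50 bp of the summit are printed, without repeating a site. In the first set the capitals mark the AP-1 word TGACTCA or its reverse complement, and in the last line the cyclic AMP response element (CRE) word TGACGTCA.
Tex35 (chr1:157075132-157075232): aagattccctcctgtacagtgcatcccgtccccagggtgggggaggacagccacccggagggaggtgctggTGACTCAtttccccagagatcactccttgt
Fam13c (chr10:70426561-70426661): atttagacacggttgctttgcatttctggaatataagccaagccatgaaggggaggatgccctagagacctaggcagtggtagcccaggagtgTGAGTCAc
Itga5 (chr15:103368234-103368334): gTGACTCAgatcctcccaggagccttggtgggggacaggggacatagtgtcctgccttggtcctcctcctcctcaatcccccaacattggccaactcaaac
Smndc1 (chr19:53434041-53434141): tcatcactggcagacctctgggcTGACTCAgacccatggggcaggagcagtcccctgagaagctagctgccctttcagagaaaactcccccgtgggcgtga
Ncam1 (chr9:49981064-49981164): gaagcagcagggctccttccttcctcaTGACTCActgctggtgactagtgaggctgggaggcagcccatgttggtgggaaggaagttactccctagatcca
Sorcs2 (chr5:36415139-36415239): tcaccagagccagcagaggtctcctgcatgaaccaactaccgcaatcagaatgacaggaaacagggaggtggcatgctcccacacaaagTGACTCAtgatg
Nectin1 (chr9:43545299-43545399): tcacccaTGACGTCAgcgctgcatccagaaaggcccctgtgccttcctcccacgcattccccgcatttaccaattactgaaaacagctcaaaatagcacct

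In the second set the capitals mark the WT1 word in the sites assigned to Ppp1r36, Dusp5 and Bhlhe40 and the CTCF word in the other 2 sites. WT1 was searched as GNGGGGGAG or GNGGGGGCG or GNGTGGGAG or GNGTGGGCG, where N is any base, and CTCF by a degenerate consensus of 12 letters.
Ppp1r36 (chr12:76480327-76480427): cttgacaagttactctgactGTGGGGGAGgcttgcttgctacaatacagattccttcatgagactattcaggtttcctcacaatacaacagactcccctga
Dusp5 (chr19:53555393-53555493): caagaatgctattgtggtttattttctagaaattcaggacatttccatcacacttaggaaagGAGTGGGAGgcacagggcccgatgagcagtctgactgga
Bhlhe40 (chr6:108709572-108709672): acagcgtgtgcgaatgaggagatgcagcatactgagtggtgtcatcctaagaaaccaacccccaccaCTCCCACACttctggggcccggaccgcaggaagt
2300002M23Rik (chr17:35578333-35578433): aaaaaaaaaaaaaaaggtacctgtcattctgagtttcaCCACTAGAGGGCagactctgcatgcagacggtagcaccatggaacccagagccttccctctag
Znfx1 (chr2:167072106-167072206): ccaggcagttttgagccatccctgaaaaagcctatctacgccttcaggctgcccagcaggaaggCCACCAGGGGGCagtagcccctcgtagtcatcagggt

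In the last set the capitals mark the TEAD word in the sites near Kpnb1 and Col3a1, a forkhead word near Ramp3 and the LMX1B word TTAATTA near Tmem174. TEAD was searched as ACATTCCA or ACATTCCT or GCATTCCA or GCATTCCT. Forkhead was searched as ACAAACA or ACAAATA or ATAAACA or ATAAATA or GCAAACA or GCAAATA or GTAAACA or GTAAATA.
Kpnb1 (chr11:97192294-97192394): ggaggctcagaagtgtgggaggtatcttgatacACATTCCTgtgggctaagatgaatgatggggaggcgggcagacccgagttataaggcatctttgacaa
Col3a1 (chr1:45031591-45031691): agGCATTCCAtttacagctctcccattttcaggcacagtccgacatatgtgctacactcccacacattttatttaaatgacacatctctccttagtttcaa
Ramp3 (chr11:6695202-6695302): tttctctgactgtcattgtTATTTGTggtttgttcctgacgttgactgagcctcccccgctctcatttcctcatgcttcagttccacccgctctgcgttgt
Tmem174 (chr13:98587371-98587471): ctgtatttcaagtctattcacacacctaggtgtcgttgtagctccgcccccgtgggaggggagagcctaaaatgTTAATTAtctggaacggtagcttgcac

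Of the 12 sites with the highest fold, 6 held an AP-1 word and 6 a WT1 word within 100 bp of the summit. The fold here is the enrichment given for each peak in the deposited list. The strongest site of all lay 33.2 kb downstream of the TSS of Tex35, a testis-expressed gene, with a fold of 38.0, and it held both an AP-1 and a WT1 word. Its nearest adriamycin peak was 65.2 kb away. The next sites were assigned to Ppp1r36 with a fold of 28.2, to Itga11, a collagen-binding integrin subunit, with 26.1, and to Fam13c with 25.1. Plau, which encodes urokinase, had a site with a fold of 24.9 and Dusp5, a nuclear ERK phosphatase, one with 24.7. The site 1.5 kb upstream of Itga5, the alpha chain of the fibronectin receptor, reached 24.3, as did the site 4.5 kb upstream of Pdk4, an inhibitory kinase of pyruvate dehydrogenase. Nectin1 (an adhesion receptor), Smndc1 (a splicing factor), Bhlhe40 (a stress-responsive transcriptional repressor) and Tbc1d22a followed with folds of 23.0, 22.5, 22.3 and 21.8. Distance does not show which gene a site acts on.

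These strong sites were not typical. The fold of the PBS-only intergenic sites had a median of 5.18 (quartiles 4.41 and 6.35), and 213 of them (5.74%) reached a fold of 10. The intergenic control peaks that overlapped an adriamycin peak had a median of 7.83 (quartiles 5.53 and 13.2), and the intergenic peaks called only after adriamycin one of 6.13 (quartiles 4.91 and 9.10). Peak width followed the same order, with medians of 244 bp, 349 bp and 273 bp. The median deposited −log10 q was 5.76 at the PBS-only sites. Fold, width and q come from the same calls that chose the sites and are given as a description.

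Among the 8528 intergenic control peaks, 43.5% had no adriamycin counterpart, against a background of 33.1% of all control peaks. The share was 39.0% for intronic control peaks. The adriamycin list went the same way, as 40.5% of its intergenic peaks had no control counterpart, against 32.3% of all its peaks. At the edge of the rule, the closest site that still counted as PBS-only had an adriamycin peak 5 bp away and a fold of 3.69, and the closest that did not count shared 5 bases with one and had a fold of 6.83. Only 30 sites had an adriamycin peak within 100 bp, with a median fold of 4.98. The median gap to the nearest adriamycin peak was 11650 bp, and 10.4% of the sites had an adriamycin peak within 1 kb.

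AP-1 words were several times as frequent under these sites as in the DNA around them and as in the intergenic peaks called only after adriamycin. A match lay within 100 bp of the summit at 758 of the 3713 sites, or 20.4% (95% Wilson interval 19.1 to 21.7%). In windows of the same 201 bp length centred 1 kb to either side of the same summits, 3.97% held one, and so did 2.99% of 27197 windows placed every 50 kb across intergenic DNA. An AP-1 word was present at 2.34% of the intergenic adriamycin-only peaks, which is 18.1 percentage points lower (95% Newcombe interval of the difference 16.7 to 19.5). The intergenic control peaks that overlapped an adriamycin peak stood between at 7.29%, a difference of 13.1 points (11.6 to 14.6). Control-only peaks in introns were close to the intergenic ones at 18.9%, and the difference of 1.53 points had an interval from −0.08 to 3.17. This interval excluded 0 with no transcript within 10 kb (3.41 points, 1.32 to 5.58), with sharing defined by an overlap of 50% of both peaks (2.06, 0.67 to 3.48) and at the peak midpoint (1.66, 0.06 to 3.29), and the difference was −0.84 points with the 20000 peaks of smallest q in each list. With GC content held equal between the classes the difference from the adriamycin-only peaks was 18.4 points, and with fold held equal it was 17.6 points. These intervals cover counting error over peaks and not the spread between mice.

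**Figure D1:**
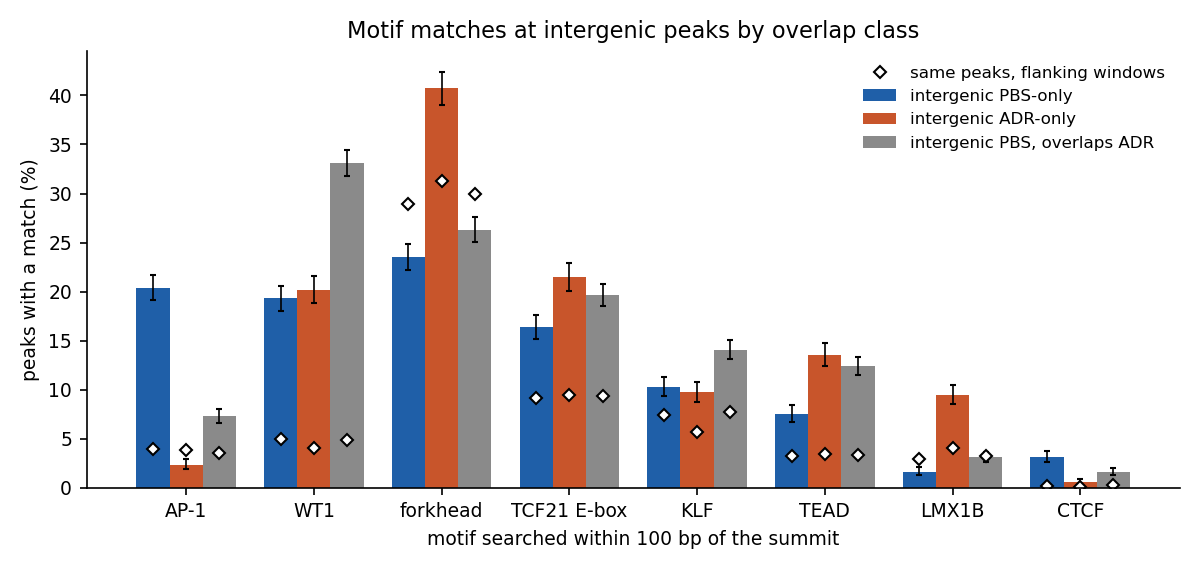
Share of intergenic peaks with a motif match within 100 bp of the summit (y axis, percent) for 8 motifs (x axis), in the PBS-only, ADR-only and overlapping PBS classes; error bars are 95% Wilson intervals and diamonds give the share in flanking windows 1 kb away. AP-1 stood at 20.4% in the PBS-only sites against 2.34% in the ADR-only peaks, while the forkhead, TEAD and LMX1B shares were higher in the ADR-only peaks.

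The AP-1 matches gathered at the summit. Within 50 bp of the summit there were 1.25 matches per kb per site, against 0.217 between 500 and 1000 bp away, a ratio of 5.74. At the intergenic adriamycin-only peaks the same densities were 0.104 and 0.202, so the summit held fewer matches than its surroundings. At the overlapping control peaks they were 0.417 and 0.187. A second AP-1 word was present in 84 of the 758 PBS-only sites and in none of the 76 adriamycin-only peaks with a match. The bases next to the word also differed between summit and surroundings. A T directly before TGACTCA was seen at 7.79% of 847 matches near the summit and at 15.5% of 807 matches 500 to 1000 bp away, and an A directly after it at 8.26% against 20.1%. Only 21 of the 758 sites had an AP-1 word overlapping the MAF word TGCTGAC, a bZIP word that ends in the first bases of the AP-1 word.

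**Figure D2:**
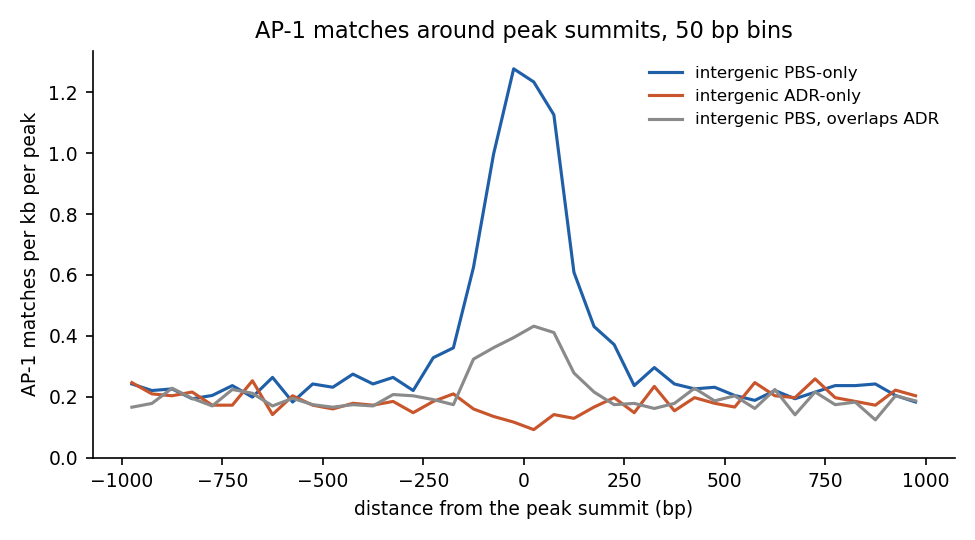
AP-1 matches per kb per peak (y axis) in 50 bp bins by distance from the summit (x axis, bp) for the 3 intergenic classes. The PBS-only sites rise at the summit to over 1 match per kb, the overlapping PBS peaks less so, and the ADR-only peaks dip there.

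A search of all words of 7 letters, which did not rest on any chosen motif, ranked TGACTCA first both against the flanks and against the adriamycin-only peaks. The next 2 words against the adriamycin-only peaks shared a GGAAG core, the centre of the sites that ETS factors recognise. CAGGAAG was present at 17.6% of the PBS-only sites, 8.75% of their flanks and 8.11% of the adriamycin-only peaks. The word ACTTCCT was present at 12.6%, 5.21% and 4.78%. The overlapping control peaks held CAGGAAG at 13.3% and ACTTCCT at 8.54%. A stricter ETS word, CCGGAAG, was found at 0.926% of the adriamycin-only peaks and 2.69% of the sites, which is 1.77 points higher (1.15 to 2.40). The sites did not differ detectably in this word from the overlapping control peaks (2.62%, 0.08 points, −0.61 to 0.78). The same held for the intronic control-only peaks (2.93%, −0.24 points, −0.89 to 0.45), and all control peaks stood at 5.63%. The RUNX word TGTGGTT stood at 4.79% of the sites against 2.99% of the adriamycin-only peaks, a difference of 1.80 points (0.89 to 2.71). Its share in the flanks of the PBS-only sites was 4.83%, so it was not concentrated at the summits. In the reverse ranking, of words more frequent at the adriamycin-only peaks, CTCCCAC came first. Its reverse complement GTGGGAG is part of the WT1 words, and it was present at 18.4% of the PBS-only sites, 27.6% of the adriamycin-only peaks and 33.3% of the overlapping control peaks.

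WT1 words were nearly as frequent as AP-1 words at the PBS-only sites, at 717 sites or 19.3% (18.1 to 20.6%), and 4.96% of the flanks held one. Here the adriamycin-only peaks did not differ detectably, at 20.2% (difference −0.90 points, −2.78 to 0.97). This depended on the setting. The difference was −2.87 points at equal GC content (−4.93 to −0.81) and −1.81 within 50 bp of the summit (−3.52 to −0.11), but 2.54 points in favour of the PBS-only sites at a fold of at least 5 (0.29 to 4.80) and 7.16 with the 20000 peaks of smallest q in each list (4.24 to 10.1). The overlapping control peaks held more, at 33.1%. AP-1 and WT1 words showed no detectable dependence on each other, as 19.3% of sites with an AP-1 word and 19.3% of sites without one also held a WT1 word (difference −0.06 points, −3.09 to 3.20). KLF words, which overlap WT1 words in part (63 of the 717 sites), were present at 10.3% and in 7.42% of the flanks. The overlapping control peaks held more (14.1%, difference −3.80 points, −5.18 to −2.40), as did the intronic control-only peaks (11.7%, −1.45 points, −2.70 to −0.17). The adriamycin-only peaks did not differ detectably in KLF words (9.72%, 0.54 points, −0.88 to 1.95). KLF was searched as GGGCGGGG or GGGCGTGG or GGGTGGGG or GGGTGTGG.

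Forkhead words, the words of the family to which FOXC2 belongs, were less frequent at the summits of the PBS-only sites (23.5%) than in their own flanks (28.9%). This was not particular to them. The overlapping control peaks (26.3% against 29.9%) and the intronic control-only peaks (22.3% against 27.3%) went the same way. The adriamycin-only peaks were the reverse, with 40.7% at the summit and 31.3% in the flanks. The PBS-only sites differed from the adriamycin-only peaks by −17.2 points (−19.4 to −15.0). The forkhead word is rich in A and T, and its share among the PBS-only sites ran from 40.4% in the quintile with the lowest GC content to 10.2% in the quintile with the highest. With GC content held equal the difference was −11.1 points. TEAD words were present at 7.51% of the sites and 3.26% of the flanks, below the 13.6% of the adriamycin-only peaks (−6.06 points, −7.53 to −4.62). The overlapping control peaks held TEAD words at 12.4% and the intronic control-only peaks at 7.85%. LMX1B words were present at 1.64% of the PBS-only sites, below both their flanks (2.96%) and the adriamycin-only peaks (9.47%, −7.83 points, −8.95 to −6.76). The overlapping control peaks stood at 3.12% (flanks 3.23%) and the intronic control-only peaks at 1.29% (flanks 2.78%). The LMX1B word holds only A and T, and at equal GC content the difference from the adriamycin-only peaks was −5.08 points (−5.98 to −4.17). The E-box CAGCTG, a word bound by TCF21 and other bHLH factors, stood at 16.4%, above the flanks (9.17%) and below the adriamycin-only peaks (21.5%).

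Of the 13 motifs searched, and with all called peaks and 1 shared base counted as overlap, CTCF was the only one whose share at the PBS-only sites was higher than in all 3 classes compared with them by an interval that excluded 0. It was found at 116 sites or 3.12% (2.61 to 3.73%), against 0.617% of the adriamycin-only peaks (2.51 points, 1.89 to 3.15), 1.66% of the overlapping control peaks (1.46 points, 0.81 to 2.15) and 1.96% of the intronic control-only peaks (1.17 points, 0.53 to 1.86). Only 0.088% of the intergenic windows held one. CRE words, which differ from AP-1 words by a single added base, were rare, at 25 sites or 0.673% against 0.123% of the adriamycin-only peaks (0.55 points, 0.26 to 0.88). No difference was detectable from the overlapping control peaks (0.457%, 0.22 points, −0.10 to 0.57) or the intronic control-only peaks (0.603%, 0.07 points, −0.24 to 0.43). All control peaks stood at 1.10%. The words of AP-1, WT1, TEAD or CTCF together were present at 1613 sites (43.4%), which leaves 2100 sites with none of these words within 100 bp.

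The motifs also sorted the PBS-only sites among themselves. Across quintiles of the sites by fold, the AP-1 share ran from 15.5% in the lowest to 33.6% in the highest (30.3 to 37.1%), and the WT1 share from 12.9% to 27.5%. A fold of 10 was reached by 12.7% of the sites with an AP-1 word and by 3.96% of the others. The CTCF share was 2.96% in the lowest quintile, 4.85% in the second and 1.21% in the highest, and 1 of its 116 sites reached a fold of 10. Sites with an AP-1 word held a CTCF word less often than the others (1.06% against 3.65%, −2.60 points, −3.50 to −1.41). The CTCF share was 4.58% in the quintile nearest to a coding TSS and 0.942% in the farthest, whereas the AP-1 share was 17.6% in the nearest and 21.8% in the farthest quintile.

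**Figure D3:**
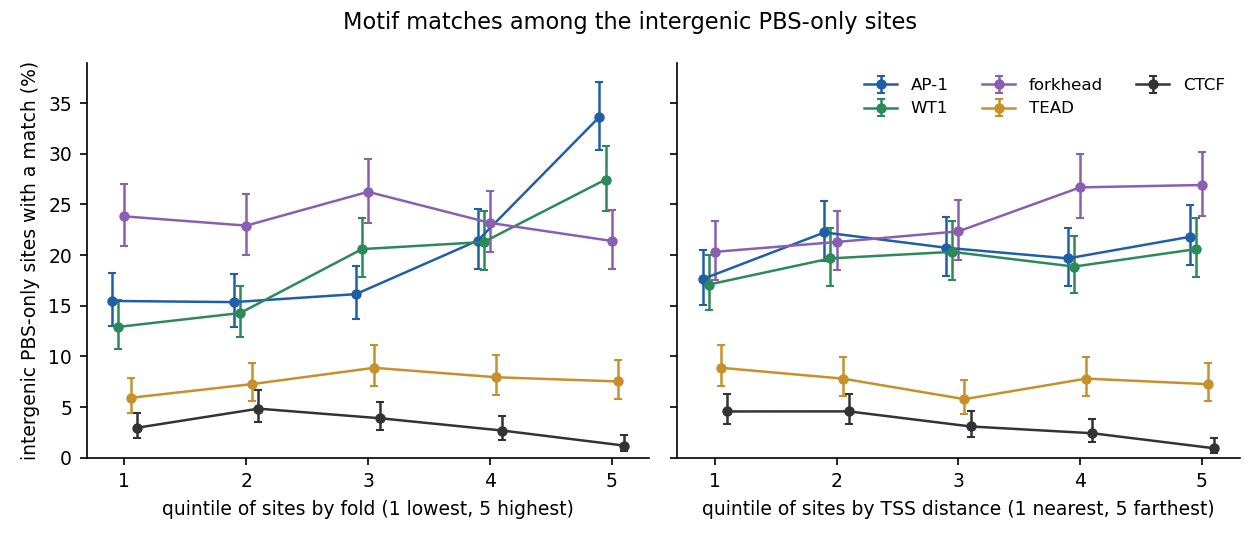
Share of the PBS-only intergenic sites with each motif (y axis, percent, 95% Wilson intervals) in quintiles by fold (left) and by distance to the nearest coding TSS (right). AP-1 climbs to 33.6% in the quintile with the highest fold while CTCF is at 1.21% there, and across distance AP-1 stays between 17.6% and 22.2%.

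The 12 strongest sites with an AP-1 word within 50 bp of the summit began with those of Tex35, Fam13c, Itga5 and Smndc1 given above. The next were upstream of Ncam1, a neural cell adhesion molecule (fold 20.98, 182.2 kb), Sorcs2, a sorting receptor (20.5, 17.1 kb), and Rab11fip5, a recycling endosome protein (18.1, 8.4 kb). Sec61b, a subunit of the protein translocation channel, had a site with a fold of 17.4. Cavin1, a coat protein of caveolae, had a site 3.6 kb upstream with a fold of 17.4 and 2 AP-1 words, and an adriamycin peak lay 0.5 kb from it. Uggt1, a folding sensor of the endoplasmic reticulum, followed with 16.7, and Cenpf, a kinetochore protein, and Wdr11 with 15.8 each. Of these 12 sites, 6 also held a WT1 word and 5 a forkhead word.

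The PBS-only sites lay near genes compared with intergenic DNA in general. The median distance to the nearest coding TSS was 30040 bp (quartiles 10811 and 78399 bp), and 64.6% of the sites lay within 50 kb, against 32.5% of the intergenic windows. The adriamycin-only peaks were farther away, with a median of 39939 bp and 54.6% within 50 kb, and the difference of these shares had an interval from 7.69 to 12.3 points. The overlapping control peaks had a median of 29783 bp. Distances over 500 kb were seen for 56 of the PBS-only sites (1.51%) and 129 of the adriamycin-only peaks (3.98%). The 5 farthest sites were 2 sites upstream of Zeb2 (1535.4 and 1464.7 kb), a zinc-finger repressor of epithelial genes, and 1 each assigned to the adhesion receptor gene Adgrl3 (1365.9 kb), the transcriptional co-regulator gene Cited2 (1215.6 kb) and Zfp386 (1214.6 kb). Their folds were 5.14, 3.51, 3.38, 4.72 and 4.20. GC content was close to that of the overlapping control peaks, with medians of 51.2% and 52.2%, and the adriamycin-only peaks had 48.3%.

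Of 21938 coding genes, 2365 were nearest to at least 1 PBS-only site. How many sites a gene gains through long intergenic stretches around it was not tested. Of the 2365 genes, 1620 had exactly 1 and 73 had 5 or more. Klf6, a zinc-finger factor that podocytes use in the response to injury, and Trib1, a pseudokinase that controls protein turnover, were each nearest to 13. The 13 sites of Klf6 spread over 543.8 kb, up to 559.2 kb from its TSS. They had folds from 3.45 to 13.9 and 6 of them held an AP-1 word. Klf6 was also the nearest gene of 2 overlapping control peaks and 3 adriamycin-only peaks in intergenic DNA. The 13 sites of Trib1 spread over 213.4 kb with folds from 3.97 to 10.4, beside 5 overlapping control peaks and no adriamycin-only peak in intergenic DNA. Zfp36l2, which encodes a protein that destabilises AU-rich mRNAs, had 11 sites with folds up to 13.5 and none with an AP-1 word. It was the nearest gene of 1 overlapping control peak and of no adriamycin-only peak in intergenic DNA. Peaks in genes or assigned to other genes are not in these counts. Gadd45g, a growth arrest and stress gene, had 10 sites beside 8 overlapping control peaks. Maf (a bZIP factor), Rgs3 (a regulator of G-protein signalling) and Serp2 had 9 each. Beside these lay 4, 1 and 17 overlapping control peaks and 2, 0 and 3 adriamycin-only peaks in intergenic DNA. The ERK feedback genes Dusp5 and Spry2 had 8 each, as did Cd47, the don't-eat-me signal, and Trpm1, a cation channel gene. In the same order, overlapping control peaks numbered 4, 6, 4 and 1 and adriamycin-only peaks 0, 1, 0 and 1. The folds at Dusp5 ran from 4.20 to 24.7, and the strong site assigned to Smndc1 lay in the same neighbourhood.

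Of these concentrations, those of Scaf8 and Trpm1 were in repetitive DNA. The 13 sites assigned to Scaf8 lay within 29.3 kb of chromosome 17, held no AP-1 or WT1 word, and 72.6% of their summit windows were soft-masked repeat on average. The 8 sites of Trpm1 lay within 21.8 kb, with 59.0% masked. The part that mapping of reads to repeats had in these calls was not tested. The 13 sites assigned to Zfp386 were spread over 992.4 kb of chromosome 12, among immunoglobulin heavy chain variable genes, with folds from 4.20 to 5.75, no AP-1 word and no WT1 word, and their summit windows were masked over 26.02% of their bases on average. Over all PBS-only sites, 14.2% of summits were in masked repeats, against 19.7% of the adriamycin-only peaks and 43.4% of the intergenic windows. AP-1 words were present at 17.6% of the sites with a masked summit and 20.9% of the others.

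**Figure D4:**
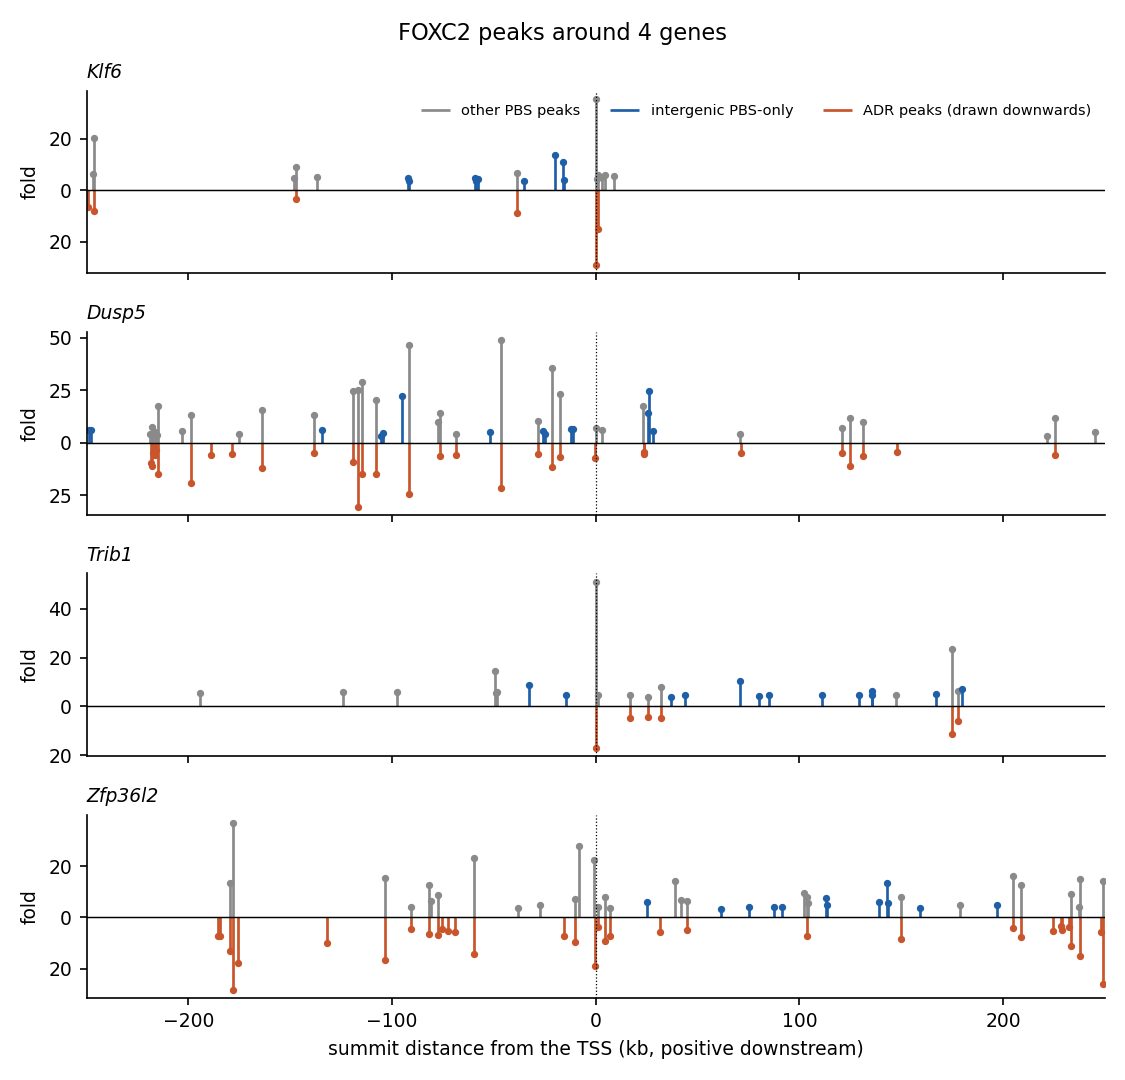
Peaks of both lists up to 250 kb from the TSS of Klf6, Dusp5, Trib1 and Zfp36l2 by distance from the TSS (x axis, kb) and fold (y axis); PBS peaks point up, with the PBS-only intergenic sites in blue, and ADR peaks point down. At Dusp5, 2 of the PBS-only sites, including the one assigned to Smndc1, exceed a fold of 20. At Trib1, PBS-only sites from 37.2 to 166.9 kb lie between neighbouring ADR peaks at 32.3 and 175.1 kb. At Klf6, those from −92.1 to −57.7 kb lie between ADR peaks at −147.1 and −38.8 kb.

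Gene lists drawn from podocyte biology were then read against the PBS-only sites within 50 kb of a TSS. The background was 16.8% of 21938 coding genes with such a site and 12.2% with an intergenic adriamycin-only peak. Peaks of every class were counted in intergenic DNA only. A site can count for several neighbouring genes, the lists share members, and list genes were not compared with genes of like surroundings. Among 29 immediate early and MAPK feedback genes, 18 (62.1%) had a PBS-only site and 9 (31.0%) an adriamycin-only peak, with 45 sites against 12 peaks. Overlapping control peaks lay near still more of them, 22 (75.9%) with 58 peaks, against 18.8% of all coding genes. Dusp5 and Btg2, an antiproliferative immediate early gene, had 7 sites each, and Klf6, Spry2 and Egr1 had 4 each. The strongest site of Btg2 had a fold of 11.4 and lay 13.6 kb from the TSS. Egr3, an early growth response factor, had 2 sites, and 1 of them had a fold of 17.1.

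The list of actin and focal adhesion genes, on which the shape of the foot process rests, gave 21 of 31 genes (67.7%) with 38 PBS-only sites, against 11 genes with 18 adriamycin-only peaks. Overlapping control peaks lay near the same number of genes, 21, with 60 peaks. An AP-1 word was present at 15 of these 38 sites (39.5%), against 485 of the 2398 PBS-only sites within 50 kb of any coding gene (20.2%). Other lists varied around that share. The word was at 9 of 45 sites of the immediate early list, 8 of 27 of the matrix list and 4 of 20 of the YAP and TEAD list. It was at 3 of 17 sites of the podocyte genes and 4 of 9 of the AP-1 subunit genes. Itga3, the laminin-binding integrin chain of the podocyte, had 5 sites with folds up to 8.07, Ptk2 (focal adhesion kinase) had 4, and Myh9, a non-muscle myosin heavy chain, had 3 with folds up to 13.0 beside 12 overlapping control peaks and no adriamycin-only peak. Itga5 had 2, both with an AP-1 word. Synpo, the actin-associated protein of foot processes, had 2 with folds of 4.20 and 16.1.

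Basement membrane and matrix genes gave 12 of 24 genes (50.0%) with 27 PBS-only sites, against 4 genes (16.7%) with 5 adriamycin-only peaks and 9 genes (37.5%) with 17 overlapping control peaks. Lama5, a chain of the glomerular basement membrane laminin, had 6 sites, and Col4a2 and Lamc1 had 3 each. Lamc1, Nid1, Fn1 and Tgfb2 had PBS-only sites and neither an adriamycin-only nor an overlapping control peak in intergenic DNA within 50 kb. Of 18 YAP and TEAD target genes, 11 (61.1%) had 20 PBS-only sites, 5 had 7 adriamycin-only peaks and 9 had 20 overlapping control peaks. Nuak2, a kinase induced by YAP, had 5 sites with folds up to 11.0, and Lats2, a kinase that restrains YAP, had 2 with folds up to 10.1. AP-1 subunit genes themselves gave 5 of 16 (31.3%), against 3 with an adriamycin-only and 7 with an overlapping control peak, with 3 sites near Fos and 2 each near Fosl1 and Fosl2.

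The counts went the other way for 48 genes characteristic of podocytes that the study examined. PBS-only sites lay near 12 of them (25%), 17 sites in all, whereas adriamycin-only peaks lay near 24 (50.0%), 50 peaks in all, and overlapping control peaks near 27, 61 in all. The study took this list from published expression data and examined FOXC2 binding at these genes in these same samples, so the list is not independent evidence of a direction. Ctsl, a lysosomal protease, had 3 PBS-only sites, and Synpo, Eif3m and Nes had 2 each. Podxl, the sialoprotein of the podocyte surface, had 1 PBS-only site beside 4 adriamycin-only peaks, and Vegfa 1 beside 4. Among 16 podocyte transcription factor genes the counts were 5 with a PBS-only site, 6 with an adriamycin-only peak and 5 with an overlapping control peak, and Klf6 and Pax2 had 4 sites each with no adriamycin-only peak.

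**Figure D5:**
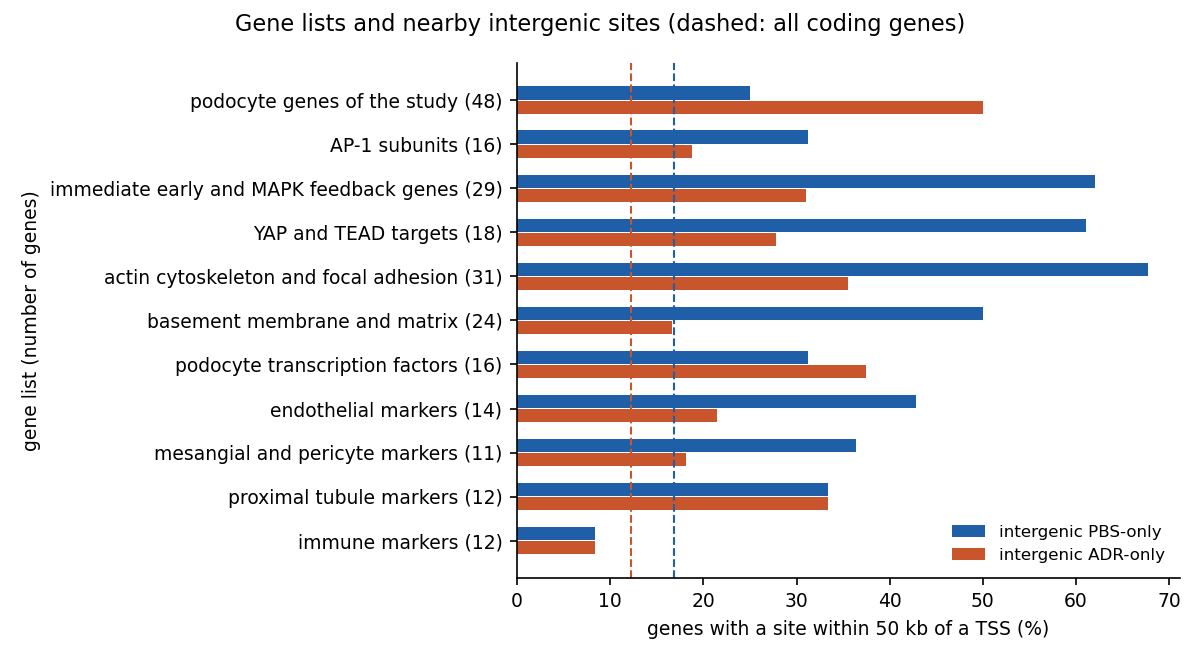
Percent of the genes of each list with at least 1 intergenic site within 50 kb of a TSS (x axis) for PBS-only sites (blue) and ADR-only peaks (orange); the number of genes stands in brackets and dashed lines give the share over all coding genes. Actin and focal adhesion genes stand at 67.7% for PBS-only sites, and the podocyte genes of the study are higher for ADR-only peaks, at 50.0% against 25%.

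Marker genes of other glomerular and kidney cells were counted in the same way. PBS-only sites lay near 6 of 14 endothelial genes (42.9%), against 3 with adriamycin-only and 4 with overlapping control peaks. For 11 mesangial and pericyte genes the counts were 4 (36.4%), 2 and 2, for 12 proximal tubule genes 4 (33.3%), 4 and 3, and for 12 immune genes 1 (8.33%), 1 and 2. The first 3 of these lists were above the 16.8% of all coding genes near PBS-only sites and the immune list was below it. The lists are short, so few genes separate these shares from the background, and none was tested against it. The site 9.6 kb from Kdr, a VEGF receptor of endothelial cells, had a fold of 15.3. What other cells in the sort contributed to these sites was not tested.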

How the data were processed

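FOXC2 ChIP-seq of sorted podocytes was deposited as 1 narrowPeak list per condition, from 3 PBS and 3 ADR samples. According to the methods, the authors used trimmed reads mapped to GRCm38 and the narrow peak calls of nf-core/chipseq, and pooled the replicates of each condition; which caller release and cut-off were used is not given in the sources used here. The deposited columns used here were the fold enrichment (a ratio), the −log10 q-value and the summit offset; peak names carry a replicate label although the lists are pooled. No counts per sample were used, so read depth is unknown and no difference between conditions was tested over mice.

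Peaks were placed by summit against GENCODE M21 transcripts with a 1 kb margin; all peak ends lay within the GRCm38 chromosomes. The lists were intersected at 1 base. Motif words were searched on both strands of the soft-masked RefSeq copy of GRCm38, in 201 bp around each summit, in 2 flanking windows centred 1000 bp away and in intergenic windows every 50 kb. Shares of peaks carry 95% Wilson intervals and their differences 95% Newcombe intervals (counting error only, no p-value; peaks are not replicates). Differences at equal GC content or equal fold were weighted over bins with at least 20 peaks in each class. Genes named are those nearest to the 12 highest-fold sites, to the 12 highest-fold sites with an AP-1 word within 50 bp, to most sites (the tenth place was tied at 8, giving 13 genes), to the 5 farthest sites, and list genes with a site within 50 kb. In the word search every word of 7 letters was counted once per window. The sites, lists and motifs were chosen with earlier results of these data known. The functions were tested on simulated data. Alternatives were q and fold minimums, equal list lengths, other overlap and placement rules, other motif windows and, added after seeing the data, summits outside masked repeats. Python 3.11.15, NumPy 2.4.6, pandas 2.3.3 and SciPy 1.17.1 were used. Single values of some list genes are not reported here.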

Additional observations from a re-analysis of the deposited data

How the results depend on the processing

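Of 120 recomputed values, 99 of 108 differences of shares kept their direction and stayed on the same side of an interval that excludes 0, and 8 of 12 counts and distances stayed within 1.5 times. The AP-1 difference between PBS-only and adriamycin-only intergenic peaks lay between 10.4 and 20.3 points over its 12 alternatives, and the forkhead (−18.7 to −11.1), LMX1B (−9.85 to −4.59), TEAD (−7.80 to −4.32), CTCF (1.55 to 2.74) and CRE (0.31 to 0.88) differences each excluded 0 in all 12. The number of sites was 2419 with a fold of at least 5 in both lists, 1695 with the 20000 peaks of smallest q in each list and 1853 with no transcript within 10 kb, which also moved the median TSS distance to 54377 bp. The WT1 difference from the adriamycin-only peaks turned to 1.33 points at a −log10 q of at least 5, 2.54 points at a fold of at least 5 and 7.16 points with lists of 20000 peaks, and its interval excluded 0 within 50 bp of the summit (−1.81) and at equal GC content (−2.87); the cause was not tested. The AP-1 difference from intronic control-only peaks was −0.84 points with lists of 20000 peaks, and excluded 0 when sharing required an overlap of 50% of both peaks (2.06), with no transcript within 10 kb (3.41) and at the peak midpoint (1.66). Leaving out masked summits, chosen after seeing the data, left 3186 sites and changed no call. No paired analysis was possible because each condition is 1 pooled list, and for the same reason no replicate could be left out. Depth is unknown, so absence of FOXC2 from a site after adriamycin and too few reads to call it cannot be told apart.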

Other observations

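The PBS-only intergenic sites were sparse on the X chromosome. They numbered 36 there, or 0.312 per Mb of intergenic sequence, against 2.97 per Mb over the autosomes (2.05 to 5.12 on single autosomes), a ratio of 9.50. The ratio was 2.92 for the adriamycin-only and 4.17 for the overlapping control peaks of intergenic DNA. The X chromosome held 0.97% of the PBS-only sites and 3.09% of the adriamycin-only peaks, a difference of −2.12 points (95% Newcombe interval −2.82 to −1.46), and it held 0.766% of the intronic control-only peaks (difference 0.20 points, −0.16 to 0.62). All mice were male per the methods.

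Neighbouring sites were common. Another PBS-only intergenic site lay within 10 kb of 1109 of the 3713 sites (29.9%), and adriamycin-only peaks were alike in this (30.2%, difference −0.34 points, −2.50 to 1.82). Overlapping control peaks had a neighbour of their own class more often (38.7%, difference −8.84 points, −10.8 to −6.82). So did intronic control-only peaks (32.1%, −2.26 points, −4.13 to −0.37). A control peak with an adriamycin counterpart, in any position relative to genes, lay within 10 kb of 1521 sites (41.0%). For overlapping control peaks this share was 51.2% and for intronic control-only peaks 50.2%. For adriamycin-only peaks, counted within the adriamycin list, it was 39.1%.

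Sites with an AP-1 word held the MAF word TGCTGAC more often than the others (7.39% against 4.13%, 3.26 points, 1.43 to 5.45), and 21 of these 56 sites were ones where both words shared bases.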
